A study of Homo sapiens with 6 samples.

Results

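Core genes of the Notch pathway, 10 of the 58024 genes in the expression table, were compared between parental and enzalutamide resistant C4-2B prostate cancer cells. They were chosen by name and comprise the receptors NOTCH1, NOTCH2 and NOTCH3, the ligands JAG1, JAG2, DLL1 and DLL4, and the transcriptional regulators HES1, HES6 and HEY1. Each name matched 1 row, and all 10 passed the filter on low values. C4-2B is an androgen-refractory derivative of the LNCaP line, obtained from a bone metastasis in mice, and enzalutamide is an antiandrogen drug. The parental group held 3 libraries of C4-2B cells that had not been selected and for which the labels name a DMSO vehicle of 1%. The study's methods state a lower maximum for the vehicle in all treatments, so its concentration is uncertain. The resistant group held 3 libraries of the surviving fraction after 6 months or more of selection, in which enzalutamide was raised from 1 to 20 µM, and these cells were then kept in 5 µM. Both groups were grown in medium with 10% fetal bovine serum. The labels also mention exposure to 10 µM enzalutamide before RNA extraction, in wording that does not say whether the parental cells received it, so selection and acute exposure cannot be told apart. The resistant cells are 1 selected population, and nothing states that the libraries of a group came from separate cultures, so the p-values measure only the spread between these libraries, which may be technical.

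Notch receptors are cut and activated when a ligand of the Jagged or Delta-like family on a neighbouring cell binds them. Gamma-secretase then releases the intracellular domain, which enters the nucleus and turns the DNA-binding protein RBPJ from a repressor into an activator of genes such as HES1 and HEY1. HES and HEY proteins are repressors that hold back proneural factors, whereas HES6 is an unusual family member known to oppose HES1. In epithelia the pathway is known for its part in cell fate choices, and in prostate cancer for its link to neuroendocrine differentiation.

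Levels are given as FPKM, in which the fragments of a gene are divided by its transcript length and by the mapped total of the library, and changes as resistant against parental log2 fold changes of FPKM plus 0.1, with standard errors (SE). A gene was called at an adjusted p below 0.05 in limma with Benjamini-Hochberg adjustment over the 24468 genes whose mean reached 0.1 FPKM. Of the 10 genes, 6 fell, 1 rose and 3 were not called. Over all genes tested, 44.4% were called, 22.1% higher and 22.3% lower in the resistant cells. The median log2 fold change was -0.62 over the 10 genes and -0.05 over all genes tested. In 6 of the 10 every resistant library was below every parental library, and in 1 every resistant library was above, while 28.1% and 26.6% of all genes tested, or 54.8% in either direction, were separated in this way.

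In the parental cells HES6 and JAG2 were the most abundant of the 10, at 55.8 ± 11.8 and 54.2 ± 2.96 FPKM (SD, n = 3), and did not differ beyond their spread. NOTCH3 followed at 33.5 ± 3.82 FPKM, and then came NOTCH1, HES1 and NOTCH2, whose ranges overlapped or touched between 14.4 and 19.7 FPKM. JAG1 stood at 10.5 ± 1.23 FPKM, and DLL1, HEY1 and DLL4 were at about 1 FPKM or less. In the resistant cells the order was different. NOTCH3 was highest at 34.2 ± 3.64 FPKM and HES1 was next at 26 ± 1.39 FPKM. HES6 and JAG2 stood together at 20.3 ± 2.35 and 20.2 ± 2.72 FPKM, NOTCH1 and NOTCH2 together at 10.3 ± 0.711 and 10.2 ± 2.31 FPKM, and JAG1 was lowest, with a range that overlapped that of DLL4.

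**Figure D1:**
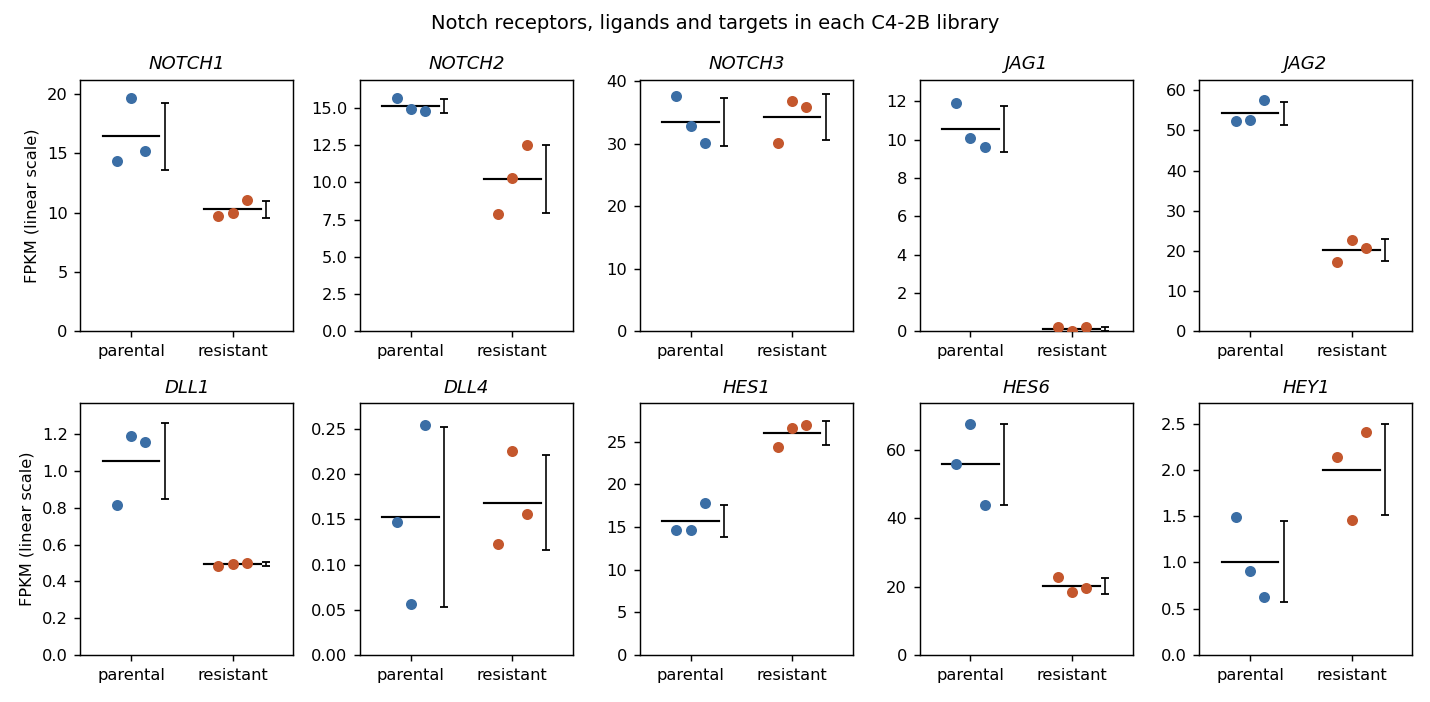
FPKM of the 10 Notch genes in each of the 3 parental and 3 resistant libraries, with 1 panel per gene and a linear axis from 0. Each point is 1 library, with a bar at the group mean and an error bar for the SD. JAG1 lies between 9.63 and 11.9 FPKM in parental libraries and at 0 to 0.198 FPKM in resistant libraries, whereas NOTCH3 overlaps between the groups.

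Among the ligands, the 2 Jagged genes and DLL1 were lower in the resistant cells. JAG1 (ENSG00000101384.11, GRCh38 chromosome 20, 10637684 to 10673999, minus strand), a ligand also known as a target of Notch signalling, was at 11.9, 10.1 and 9.63 FPKM in parental libraries and at 0.198, 0 and 0.195 FPKM in resistant libraries. The groups were separated by a wide gap, and a listed 0 in this kind of table can be a failed estimate. The log2 fold change was -5.68 (SE 0.47, adjusted p 0.000214, limma), and without the library at 0 it was -5.16. Its size depended on the pseudocount, from -3.35 at 1 FPKM to -7.13 at 0.01 FPKM. From the estimated depth the resistant values stand for about 32, 0 and 25 reads against 1170 to 2208 reads in parental libraries. In bulk RNA, fewer cells with a transcript and less of it per cell cannot be told apart.

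JAG2 (ENSG00000184916.8, chromosome 14, 105140982 to 105168824, minus strand), the most abundant ligand, was at 52.4, 52.6 and 57.6 FPKM in parental libraries and at 17.3, 22.7 and 20.6 FPKM in resistant libraries. Every resistant library lay far below every parental library. JAG2 fell by 1.43 on the log2 scale, a 2.69-fold decrease (SE 0.12, adjusted p 0.000205, limma). A long non-coding RNA on the same strand shares 7.3% of its exon bases.

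DLL1 (ENSG00000198719.8, chromosome 6, 170282206 to 170306565, minus strand), a Delta-like ligand, was at 0.817, 1.19 and 1.16 FPKM in the parental and 0.482, 0.495 and 0.502 FPKM in resistant libraries. The resistant libraries were close together and below all parental libraries, and DLL1 fell by 0.95 (SE 0.30, adjusted p 0.0439, limma). This call was near the threshold and was lost in 5 of the 6 fits that left out a library, all but that without parental replicate 0. The gene shares 9.7% of its exon bases with FAM120B on the opposite strand, which was at 7.47 to 10.6 FPKM in the 6 libraries. The study's methods name a stranded total RNA kit for the libraries, but whether counting used strand is not stated.

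DLL4 (ENSG00000128917.6, chromosome 15, 40929340 to 40939073, plus strand), a Delta-like ligand best known from blood vessels, was at 0.147, 0.056 and 0.255 FPKM in the parental and 0.123, 0.226 and 0.156 FPKM in resistant libraries. The groups overlapped, and the log2 fold change of 0.15 (SE 0.49, adjusted p 0.832, limma) had a 95% interval from -1.03 to 1.32. About 5.2 to 17 reads per library stand behind these values, and a change of a size within that interval is not resolved by these libraries. DLL3, a Delta-like protein that acts mainly inside the cell as an inhibitor and that was not among the 10 genes, was at 7.23, 5.27 and 6.38 FPKM in the parental and 1.61, 1.96 and 2.08 FPKM in resistant libraries. It fell by 1.69 (SE 0.20, adjusted p 0.000871, limma), again with no overlap between the groups.

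The 5 canonical ligands summed to 72.5, 69.2 and 75 FPKM in parental libraries and to 19.7, 25.4 and 23.5 FPKM in resistant libraries. JAG2 was the main ligand in both groups, and its share of the sum was 75 ± 2.44% in the parental and 88.2 ± 1.06% in resistant libraries, a difference of 13.2 percentage points. The share of JAG1 went from 14.6 ± 1.82% to 0.611 ± 0.536%, a difference of -14 points. Both were separated in all libraries, with a two-sided exact permutation p of 0.1, the smallest that 3 against 3 libraries allow. The shares of DLL1 and DLL4 were 0.713 and 0.517 points higher in resistant libraries at the same p, and that of DLL3 differed by -0.455 points (exact permutation p 0.7). Shares of 1 sum depend on each other, so these are not separate results. The DLL1 share rose although DLL1 itself fell from 1.06 to 0.493 FPKM, while the mean sum fell from 72.2 to 22.9 FPKM.

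**Figure D2:**
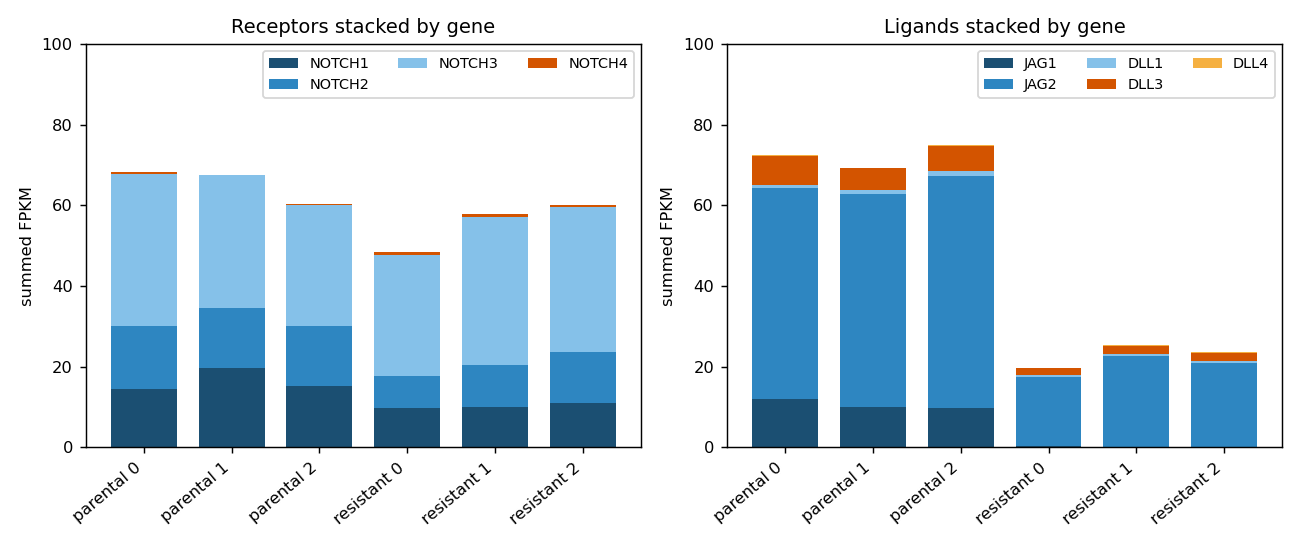
Stacked bars of the summed FPKM of the 4 Notch receptors and of the 5 canonical ligands in each of the 6 libraries, starting at 0, with 1 colour per gene. The ligand sum lies between 69.2 and 75 FPKM in the parental and between 19.7 and 25.4 FPKM in resistant libraries, and JAG2 makes up most of it in both groups.

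Among the receptors, NOTCH1 and NOTCH2 were lower in the resistant cells and NOTCH3 was at a similar level. NOTCH1 (ENSG00000148400.9, chromosome 9, 136494433 to 136546048, minus strand) was at 14.4, 19.7 and 15.2 FPKM in the parental and 9.73, 10.0 and 11.1 FPKM in resistant libraries. The groups did not overlap, and NOTCH1 fell by 0.66 (SE 0.15, 95% interval -1.02 to -0.31, adjusted p 0.0117, limma). The call held in each fit that left out a library.

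NOTCH2 (ENSG00000134250.18, chromosome 1, 119911553 to 120100779, minus strand) was at 15.7, 14.9 and 14.8 FPKM in the parental and 7.89, 10.3 and 12.5 FPKM in resistant libraries. The groups did not overlap, but the resistant libraries were spread widely. NOTCH2 fell by 0.58 (SE 0.18, adjusted p 0.0365, limma). The call was lost in 5 of the 6 fits that left out a library, all but that without resistant replicate 2, with adjusted p-values up to 0.112. NOTCH2NL, a near-identical partial copy between which reads could be split, was at 0.47 to 0.758 FPKM in the 6 libraries.

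NOTCH3 (ENSG00000074181.8, chromosome 19, 15159038 to 15200995, minus strand), the most abundant receptor, was at 37.6, 32.8 and 30.1 FPKM in the parental and 30.1, 36.8 and 35.9 FPKM in resistant libraries. The groups overlapped, and the log2 fold change of 0.03 (SE 0.12, adjusted p 0.855, limma) had a 95% interval from -0.26 to 0.33. NOTCH4, a receptor outside the 10 genes, was at 0.506, 0.0854 and 0.284 FPKM in the parental and 0.65, 0.684 and 0.487 FPKM in resistant libraries. Its groups overlapped and it was not called (log2 fold change 1.00, SE 0.52, adjusted p 0.167, limma).

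The 4 receptors summed to 68.2, 67.5 and 60.4 FPKM in parental libraries and to 48.3, 57.8 and 60.0 FPKM in resistant libraries, a much smaller step than that of the ligands. NOTCH3 held 51.2 ± 3.51% of the sum in the parental and 61.9 ± 1.92% in resistant libraries, a difference of 10.7 points (exact permutation p 0.1, the smallest possible). The shares of NOTCH1 and NOTCH2 differed by -6.54 and -4.86 points at the same p. Receptor shares too depend on each other, and NOTCH3 itself was at a similar level in both groups. The ratio of JAG2 to NOTCH3, the leading ligand to the leading receptor, was 1.39, 1.61 and 1.92 in parental libraries and 0.576, 0.618 and 0.573 in resistant libraries. Thus JAG2 exceeded NOTCH3 in each parental library and was below it in each resistant library.

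**Figure D3:**
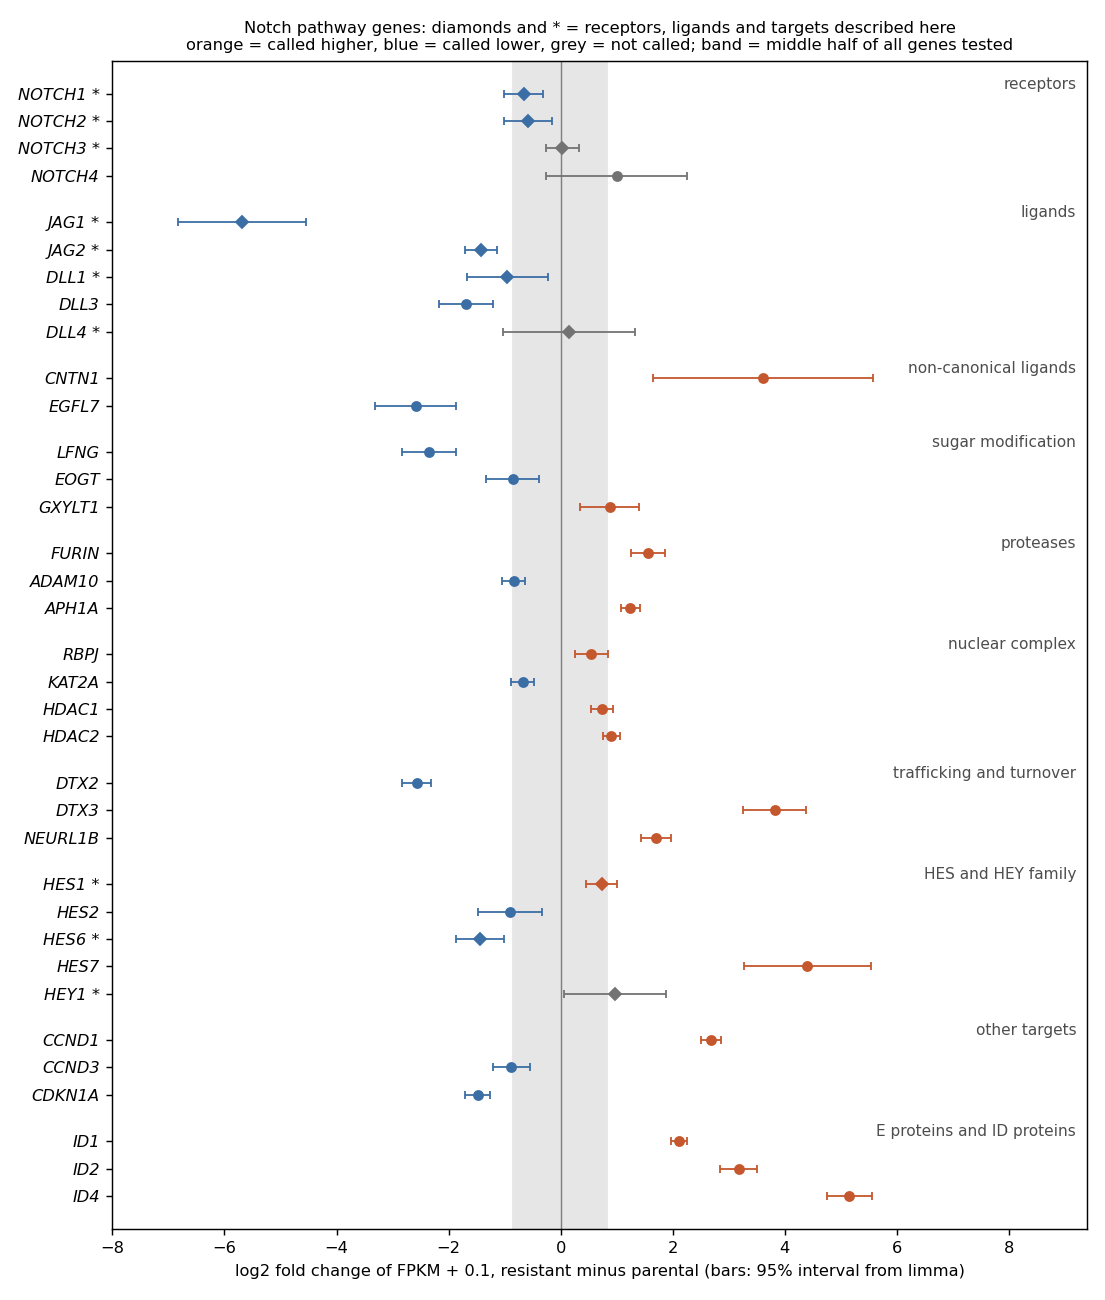
Log2 fold change of FPKM plus 0.1, resistant against parental, with 95% intervals from limma. Diamonds are the 10 Notch genes and circles are other pathway genes named by rule. Orange marks genes called higher, blue those called lower and grey those not called. JAG1 stands at -5.68, JAG2 and HES6 at -1.43 and -1.44, and HES1 at 0.73, the only called increase among the 10.

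The transcriptional regulators moved in different directions. HES1 (ENSG00000114315.3, chromosome 3, 194136148 to 194138732, plus strand), a repressor and a classical Notch target, was at 14.7, 14.6 and 17.8 FPKM in the parental and 24.4, 26.6 and 27 FPKM in resistant libraries. Every resistant library was above every parental library, and HES1 rose by 0.73 on the log2 scale, or 1.66-fold (SE 0.11, adjusted p 0.00256, limma). HES6 (ENSG00000144485.10, chromosome 2, 238238267 to 238240662, minus strand), known from neuronal differentiation and from prostate cancer, was at 55.8, 67.6 and 44 FPKM in the parental and 22.9, 18.4 and 19.5 FPKM in resistant libraries. The groups did not overlap, and HES6 fell by 1.44, a 2.71-fold decrease (SE 0.17, adjusted p 0.000928, limma). The deposited table gives HES6 a locus shared with PER2, a clock gene with which it has no exon overlap and which was at 5.63 to 5.81 FPKM in the parental and 14.1 to 19.9 FPKM in resistant libraries.

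The ratio of HES6 to HES1, chosen after the values were seen, was 3.79, 4.62 and 2.47 in parental libraries and 0.939, 0.69 and 0.724 in resistant libraries. HES6 was therefore above HES1 in each parental library and below it in each resistant library. HEY1 (ENSG00000164683.16, chromosome 8, 79762371 to 79767857, minus strand), a repressor related to HES1 and also a Notch target, was at 1.49, 0.902 and 0.63 FPKM in the parental and 2.14, 1.46 and 2.41 FPKM in resistant libraries. The lowest resistant library lay just below the highest parental library. HEY1 was not called (log2 fold change 0.97, SE 0.38, adjusted p 0.0807, limma), with a 95% interval from 0.06 to 1.88, and without parental replicate 0 it was called at 1.27 (adjusted p 0.0464).

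The other HES genes gave no common direction either. HES7, known from the segmentation clock of the embryo, was at 0.506, 1.55 and 0.37 FPKM in the parental and 16.9, 14.4 and 17.6 FPKM in resistant libraries, and rose by 4.4 (SE 0.47, adjusted p 0.000563, limma). HES7 thus went from far below HES1, at 0.0207 to 0.106 of its level, to 0.539 to 0.694 of its level. HES2 fell by 0.91 (SE 0.23, adjusted p 0.0204, limma), from 2.83 to 4.06 FPKM in the parental to 1.5 to 2.13 FPKM in resistant libraries, and lost the call in 4 of the 6 fits that left out a library, all but those without parental replicate 1 or resistant replicate 2. HES4 was at 25.9 to 48.7 FPKM in the parental and 29.9 to 42.9 FPKM in resistant libraries and was not called (log2 fold change 0.07, adjusted p 0.847, limma). HES5, a Notch target in neural progenitors, was named after its values were seen, at 0.114, 0.132 and 0.0793 FPKM in the parental and 0.468, 0.568 and 0.618 FPKM in resistant libraries. It rose by 1.65 (SE 0.37, adjusted p 0.0121, limma), with no overlap between the groups but on about 1.2 to 10 reads per library. The summed FPKM of all HES and HEY genes overlapped between the groups, at 92.9 to 136 in the parental and 98.5 to 109 in resistant libraries.

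**Figure D4:**
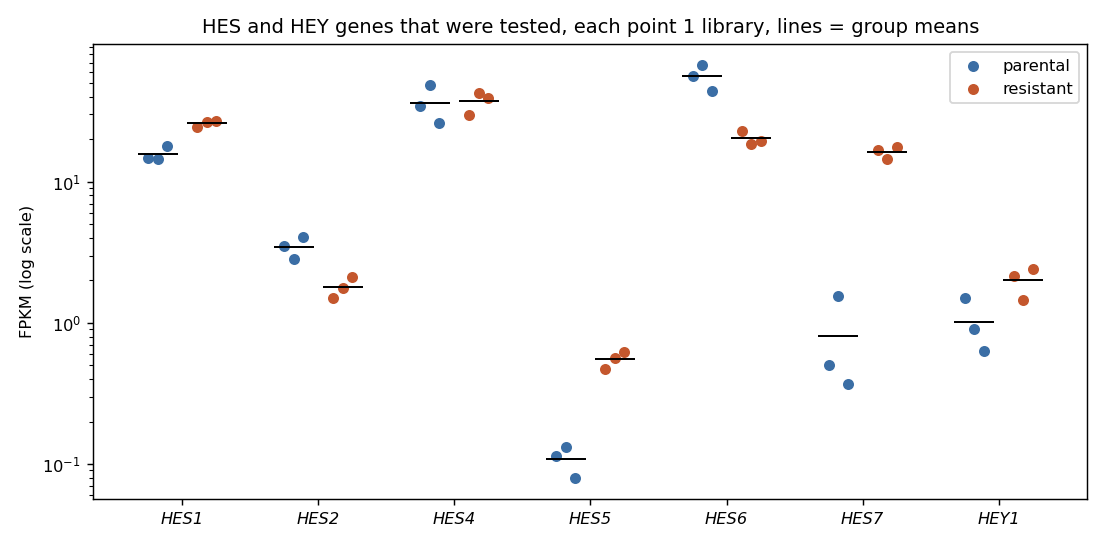
FPKM of the HES and HEY genes in each parental and resistant library on a logarithmic axis, with a bar at each group mean. HES1 and HES7 are higher in resistant libraries, HES6 and HES2 are lower, and the groups overlap for HES4 and HEY1.

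The promoters of the HES genes are shown because RBPJ, the factor through which Notch acts, binds the short core motif TGGGAA. The 250 bases before the RefSeq start (GRCh38.p14) were searched on both strands, so TTCCCA counted too. Only 1 start per gene was searched. For NOTCH2, HES2, HES6 and HEY2 the searched bases lie inside the annotated span of the gene, so a missing match holds for that start only. An entry was used for 16 of the 19 receptor, ligand, HES and HEY genes. DLL1 and DLL3 had no entry and HEY1 was left out by name, so the counts do not cover these genes. The core was found in 6 of the 9 HES and HEY promoters and in 0 of the 7 receptor and ligand promoters, against 20.8% of 35116 promoters of the same length. HES1 and HES5 each held 2 cores, as did 2.9% of all promoters, counting those with 2 or more. The 3 promoters below run 5′ to 3′ on the strand of the gene with the core in capitals. HES1 (chr3:194135898-194136147, plus strand) and HES5 (chr1:2530264-2530513, minus strand) were the HES genes with 2 cores, and HES6 (chr2:238240039-238240288, minus strand) had no match.
HES1: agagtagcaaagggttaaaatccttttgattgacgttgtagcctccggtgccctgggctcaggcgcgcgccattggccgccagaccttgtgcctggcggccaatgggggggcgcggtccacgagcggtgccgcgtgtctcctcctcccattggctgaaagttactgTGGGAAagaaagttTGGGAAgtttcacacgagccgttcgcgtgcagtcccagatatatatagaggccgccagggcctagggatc
HES5: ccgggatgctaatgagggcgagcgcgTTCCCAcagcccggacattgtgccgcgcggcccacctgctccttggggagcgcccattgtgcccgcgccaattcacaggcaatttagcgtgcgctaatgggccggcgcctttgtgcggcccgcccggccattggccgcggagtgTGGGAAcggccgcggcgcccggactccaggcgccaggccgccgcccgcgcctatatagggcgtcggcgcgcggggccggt
HES6: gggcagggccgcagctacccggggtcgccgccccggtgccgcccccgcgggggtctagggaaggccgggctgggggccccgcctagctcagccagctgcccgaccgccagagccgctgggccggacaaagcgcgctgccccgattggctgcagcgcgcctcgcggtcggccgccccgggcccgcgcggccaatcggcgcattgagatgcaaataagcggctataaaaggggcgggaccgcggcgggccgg
In HES1 the cores begin 84 and 70 bases before the start, on the same strand and 8 bases apart. In HES5 they begin 224 and 80 bases before the start, on opposite strands. The longer form GTGGGAA, which contains the core, occurred in 5.43% of all promoters and was present in both HES1 and HES5. The N box CACNAG, a motif bound by HES proteins, was found 3 times in the HES1 promoter and in 32.0% of all promoters at least 1 time. A match is a run of letters and not a measured binding site. HES1 and HES5, with 2 cores each, rose. HES4, with 1 core, was not called, and HES3, with 1 core, was listed at 0 in all 6 libraries. HEYL, with 2 cores, and HEY2, with 1 core, did not pass the filter on low values. Of the HES promoters without a core, HES7 rose and HES2 and HES6 fell.

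Beyond the 10 genes, 90 further genes of the pathway were listed by role. Of these, 77 passed the filter, 28 rose, 24 fell and 25 were not called, with a median log2 fold change of -0.12. The share called was 67.5%, beside 44.4% of all genes tested. Genes expressed in 1 group only pass the filter through that group, so this share is a description.

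Genes that modify or cleave the receptor moved in both directions. LFNG, the Fringe enzyme that adds sugars to Notch and shifts its preference between Delta-like and Jagged ligands, was at 11.4, 13.2 and 9.46 FPKM in the parental and 2.41, 2.31 and 1.72 FPKM in resistant libraries, and fell by 2.35 (SE 0.20, adjusted p 0.000251, limma). Among the 9 glycosylation genes, all tested, 3 rose and 3 fell. EOGT, which adds N-acetylglucosamine, fell by 0.86 (adjusted p 0.0135, limma), and GXYLT1, a xylosyltransferase, rose by 0.88 (adjusted p 0.0177, limma). The call of EOGT was lost without parental replicate 0, resistant replicate 0 or resistant replicate 1, and that of GXYLT1 in those fits and without resistant replicate 2, with adjusted p-values up to 0.0773. Of the 9 processing proteases and gamma-secretase subunits, 3 rose and 3 fell. APH1A, a subunit of gamma-secretase, was at 47.0 ± 2.60 and 111 ± 3.50 FPKM and rose by 1.24 (SE 0.07, adjusted p 5.33e-05, limma), with 14.1% of its exon bases shared with C1orf54 on the opposite strand. FURIN, the convertase that cuts the receptor precursor, rose by 1.56 from 7.85 ± 0.659 to 23.4 ± 2.68 FPKM (adjusted p 0.000191, limma). ADAM10, the protease that cuts the ligand-bound receptor, fell by 0.84 from 98.2 ± 8.87 to 54.9 ± 2.04 FPKM (adjusted p 0.000489, limma).

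The called non-canonical ligands stood far apart. EGFL7, a secreted protein known from endothelium, was at 14, 12.9 and 15.4 FPKM in the parental and 1.61, 3.62 and 1.94 FPKM in resistant libraries and fell by 2.59 (SE 0.30, adjusted p 0.000803, limma). CNTN1, a neural adhesion molecule, was at 0.132, 1.13 and 0.0279 FPKM in the parental and 3.35, 4.33 and 4.23 FPKM in resistant libraries. It rose by 3.61 (SE 0.82, adjusted p 0.0124, limma), with parental libraries far apart and the call lost in 4 of the 6 fits that left out a library, those without parental replicate 0 or any resistant replicate.

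In the nuclear step, RBPJ was at 30.9, 28.4 and 35.6 FPKM in the parental and 47.7, 40.8 and 49.9 FPKM in resistant libraries. The groups did not overlap and RBPJ rose by 0.54 (SE 0.12, adjusted p 0.0117, limma), with an adjusted p of 0.0524 without resistant replicate 0. Of the 18 genes listed for the nuclear complex, RBPJ and its relative RBPJL included, 16 were tested, and 5 rose, RBPJ among them, and 5 fell. HDAC1 and HDAC2, histone deacetylases found in repressor complexes, rose by 0.74 and 0.90 (adjusted p 0.000655 and 9.44e-05, limma). KAT2A, a histone acetyltransferase, fell by 0.68 (adjusted p 0.001, limma).

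Regulators of trafficking and turnover held some of the widest changes of the pathway, and 7 rose and 6 fell of 16 tested. DTX2 and DTX3, both Deltex-type ubiquitin ligases, moved in opposite directions. DTX2 fell by 2.57 from 19.5 ± 0.654 to 3.20 ± 0.144 FPKM (SE 0.11, adjusted p 2.11e-05, limma), and DTX3 rose by 3.82 from 0.888 ± 0.242 to 13.6 ± 0.851 FPKM (SE 0.23, adjusted p 6.33e-05, limma). NEURL1B, a ubiquitin ligase that acts on Notch ligands, rose by 1.70 from 4.83 ± 0.305 to 15.9 ± 0.644 FPKM (adjusted p 8.47e-05, limma). Its relative NEURL1, named after its values were seen, was at 0.397 ± 0.351 and 19.0 ± 0.943 FPKM and rose by 5.52 (SE 0.51, adjusted p 0.000331, limma).

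Genes known as further Notch targets again split, with 2 higher, 2 lower and 3 not called of 7. CCND1, the cyclin that drives entry into S phase, rose by 2.68 from 274 ± 19.7 to 1760 ± 71.2 FPKM (adjusted p 4.69e-06, limma). CDKN1A, the cell cycle inhibitor p21, fell by 1.48 from 82.9 ± 7.63 to 29.6 ± 1.43 FPKM (adjusted p 6.9e-05, limma), and CCND3, another D-type cyclin, fell by 0.88 (adjusted p 0.0027, limma).

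ID proteins, which like HES6 interact with basic helix-loop-helix factors but cannot bind DNA, shared a direction. Of the 7 E protein and ID genes, 4 rose, 1 fell and 2 were not called. ID1 rose by 2.11 from 40.1 ± 0.608 to 173 ± 5.17 FPKM (adjusted p 5.4e-06, limma). ID2 rose by 3.18 from 12.5 ± 2.24 to 113 ± 5.30 FPKM (adjusted p 2.15e-05, limma). ID4 rose by 5.15 from 0.479 ± 0.0551 to 20.4 ± 0.553 FPKM (adjusted p 7.92e-06, limma).

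Markers of the cell type moved between the same groups. Of 9 luminal prostate markers, 2 rose and 6 fell, and their sum was 4150 to 4910 FPKM in the parental and 1170 to 1250 FPKM in resistant libraries. KLK3, which encodes prostate-specific antigen, fell by 5.85. Of 5 neuroendocrine markers 4 were tested, and SYP, ENO2 and CHGA, 3 of them, rose. SYP went from 1.7 ± 0.751 to 49.6 ± 3.71 FPKM and ENO2 from 7.15 ± 1.28 to 139 ± 14.1 FPKM. CHGA stayed low, at 0.0495 ± 0.0858 FPKM in the parental and 0.563 ± 0.0371 FPKM in resistant libraries. NCAM1 was not called, at 0.334 ± 0.224 FPKM in the parental and 0.124 ± 0.124 FPKM in resistant libraries (log2 fold change -0.99, adjusted p 0.246, limma), and INSM1 was near 0. All 5 together summed to 7.04 to 11.2 FPKM in the parental and 178 to 199 FPKM in resistant libraries, mostly from ENO2 and SYP. The 4 fibroblast markers summed to 5.09 to 8.74 and 7.64 to 12.4 FPKM, and of the 3 tested, 2 rose. DCN was listed at 0 in all parental libraries and at 3.63, 3.78 and 4.35 FPKM in resistant libraries (adjusted p 5.33e-05, limma), LUM rose by 2.75 to 0.969 ± 0.313 FPKM (adjusted p 0.00418, limma), and COL1A1 was not called (log2 fold change -0.66, adjusted p 0.192, limma). The 4 endothelial markers summed to at most 1.24 FPKM, with VWF, the 1 tested, lower (log2 fold change -1.52, adjusted p 0.0491, limma) and PECAM1 and CDH5 at 0 in all parental libraries, and the 4 leukocyte markers to at most 0.658 FPKM, with CD68, the 1 tested, not called (log2 fold change -1.49, adjusted p 0.244, limma) and PTPRC, CD3E and CD79A at 0 in all parental libraries. The part of these differences in the Notch gene values was not tested.

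The libraries held 21956 to 27153 genes above 0 FPKM. The table carries no read counts, and spacing of low values gave a rough depth of 13300000 to 20300000 reads per library. The short RNA gene RMRP took 18.4 to 21.5% of the summed FPKM in the parental and 11.4 to 12.6% in resistant libraries, and RPPH1 0% and 10.7 to 11.6%. After rescaling without both, HES1 was still called higher and JAG1, JAG2, NOTCH1, NOTCH2 and HES6 lower, while DLL1 was not called (adjusted p 0.0573, limma).

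**Figure D5:**
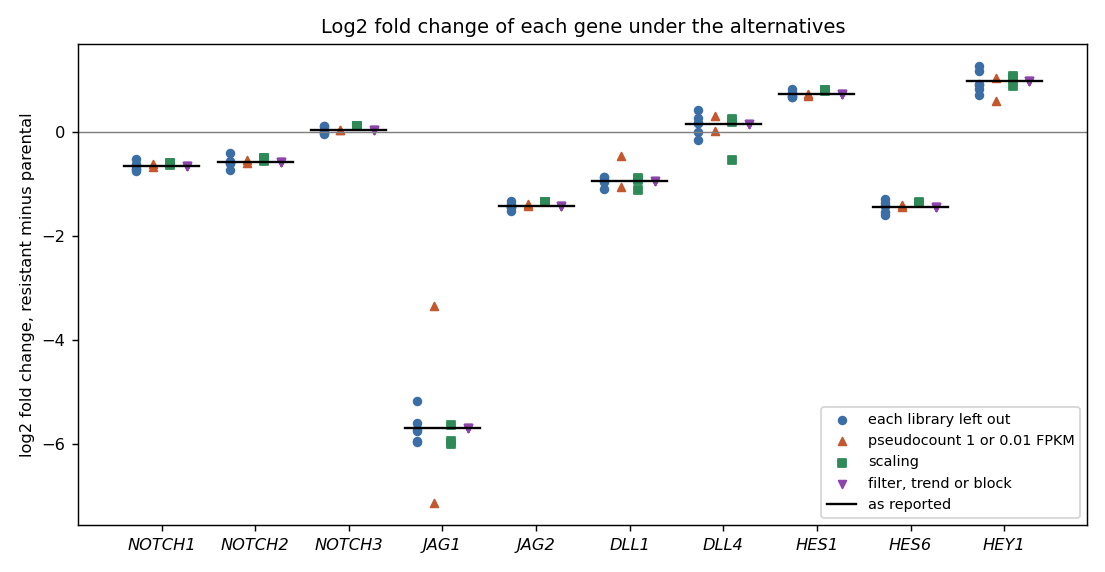
Range of the log2 fold change of each of the 10 Notch genes over the alternative analyses, with the value of the main analysis marked. JAG1 has the widest range, from -7.13 to -3.35, and the ranges of NOTCH3 and DLL4 cross 0.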

How the data were processed

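RNA from C4-2B parental and enzalutamide resistant cells was sequenced as 50 bp single-end reads on a HiSeq 2500. Per the labels and the study's methods, the authors trimmed reads, aligned them with STAR and estimated gene levels with Cufflinks. Trimmomatic 0.27, FastQC 0.10.1 and Cufflinks 2.2.1 stand in the submitters' processing notes. Those notes list a mouse build, but the gene identifiers and loci of the table are human GRCh38. The deposited values are FPKM, normalized by the authors for transcript length and sequencing depth, and the unit is taken from the study's methods, since the table has no unit in its header. Samples were grouped by their labels, and every library column was used.

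From these values log2(FPKM + 0.1) was computed and fitted with limma 3.58.1 (lmFit and eBayes with a variance trend) in R 4.3.3 for genes whose mean reached 0.1 FPKM, after a check on simulated data. Fold changes on this scale understate those of low genes. Shares of receptor and ligand sums were compared by two-sided exact permutation tests. Reads per library were approximated from the step between low values, assuming fragments of 200 bases, and since 38.1 to 52.0% of low values lay within 0.1 of a whole read, no count test was run and read numbers are rough. Coordinates come from GENCODE 44 (GRCh38), in which 56935 of 58024 identifiers were found. Promoters come from RefSeq.

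The members and gene lists were chosen with earlier results of these data known. Genes outside the 10 were named by rule: NOTCH4, DLL3 and RBPJ always, and in each list the 3 called genes of at least 1 FPKM with the smallest adjusted p. Some further genes are not reported here. Other settings tried concerned scaling, the pseudocount, the low-value filter, the variance trend, the replicate block, a 2-fold minimum and leaving out each library.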

Additional observations from a re-analysis of the deposited data

How the results depend on the processing

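JAG1, JAG2, HES6, NOTCH1 and HES1 kept their direction and their call in every alternative run, except that NOTCH1 and HES1 are below the 2-fold minimum. With a minimum of 2-fold, 6979 genes were called in place of 10868, of them 3320 lower, and of the 10 Notch genes 0 were higher and 3 lower, beside 15.0% and 13.6% of all genes tested, while 18 other pathway genes were higher and 13 lower. Leaving out each library in turn gave 9324 to 10152 called genes, 1 to 2 higher Notch genes (2 without parental replicate 0, when HEY1 was called) and 4 to 5 lower ones. NOTCH2 also lost its call without the variance trend (adjusted p 0.0663, limma), and DLL1 without the filter (0.093) and with upper-quartile scaling (0.0525). Of the uncalled genes, DLL4 and NOTCH3 changed sign, while HEY1 stayed positive at 0.59 to 1.27 over all alternatives. DLL4 was at -0.53 after quantile normalization (adjusted p 0.413, limma). When each library was left out, DLL4 was at -0.16 to 0.43 (-0.0021 without resistant replicate 1). In the same fits NOTCH3 was at -0.04 to 0.12 (-0.02 without resistant replicate 1 and -0.0041 without resistant replicate 2). The DLL3 share of the ligand sum differed by -0.994 to 0.182 points over the same omissions, and the JAG2 share by 11.8 to 14.1 points and the NOTCH3 share of the receptors by 9.41 to 12.7 points. The cause of these changes was not tested. The ratio of HES6 to HES1 differed by -2.18 on the log2 scale, and by -2.43 to -1.98 over its alternatives.

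Replicate numbers are shared between the groups, and nothing states whether same-numbered libraries were prepared together. Their deviations from the group means were close to uncorrelated across genes (r 0.00802, 0.0165 and -0.00301). With the replicate block 9463 genes were called, and 1 Notch gene was higher and 4 lower, since NOTCH2 (adjusted p 0.066) and DLL1 (0.0996) were not called. Depth limits DLL4, DLL1, HES5 and JAG1 in the resistant libraries, where few reads stand behind a value.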

Other observations

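Some low pathway genes outside the naming rule were chosen after their values were seen. DLK2, a non-canonical ligand that lacks the usual receptor-binding domain, was at 0.0184 ± 0.0319 FPKM in the parental and 0.772 ± 0.351 FPKM in the resistant libraries (SD, n = 3) and rose by 2.82 (adjusted p 0.0048, limma with Benjamini-Hochberg adjustment). MFNG, a Fringe enzyme like LFNG, was at 0.137 ± 0.138 and 1.04 ± 0.227 FPKM and rose by 2.44 (adjusted p 0.0136, limma), the opposite direction to LFNG. At higher levels, the endocytic adaptors EPN1 and EPN2, which ligand-sending cells use, fell by 1.54 and 1.28 (adjusted p 0.000132 and 0.000121, limma). NUMB and NUMBL, known as inhibitors of Notch, fell by 0.69 and 1.27 (adjusted p 0.00112 and 0.000962, limma). MYC, a Notch target in other tissues, was at 194 ± 14.1 and 178 ± 15.2 FPKM and was not called (log2 fold change -0.13, adjusted p 0.305, limma).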
